A study of Saccharomyces cerevisiae with 29 samples.

Results

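The 480 genes described here lie more than 40 kb from every annotated replication origin in the budding yeast reference sequence L03. A gene feature with an mRNA counted as a member if its midpoint was over 40 kb from the midpoint of every feature typed as an origin of replication on the same chromosome. They made up 8.19% of the 5859 genes with an mRNA, set against 274 origins on 16 chromosomes. They are called far genes below, and the other 5379 are called other genes. Positions alone decided membership and no measured signal entered the rule, but the rule was proposed with earlier results of these data known.

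Budding yeast starts DNA replication at short autonomously replicating sequences (ARS), which are loaded with the replicative helicase before S phase and fire at different times and with different efficiencies. From each active origin a pair of forks moves outward, with DNA polymerase epsilon copying mainly the leading strand and DNA polymerases alpha and delta the lagging strand. A gene far from origins is copied passively, by a fork that has travelled a long way or by one of 2 forks that meet nearby, and at a chromosome end without an origin by a fork that runs to the telomere.

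The study made 29 libraries of genomic DNA 5′ ends by hydrolysing DNA with alkali where ribonucleotides had been incorporated, a method known as HydEn-seq. Cells were grown to mid-log phase in rich medium. The 14 strains were the wild type and the polymerase variants pol2-M644G and pol2-M644L (DNA polymerase epsilon), pol3-L612G and pol3-L612M (delta), and pol1-Y869A and pol1-L868M (alpha), each with RNH201 and with rnh201-delta, the deletion of the catalytic subunit of RNase H2. There were 13 libraries of 7 strains with RNH201 and 16 of 7 strains without it. The ends sequenced in these libraries were not analysed here. Every value below is therefore a count, a length or a distance along 1 annotated sequence, with no depth and no contrast between strains. Coordinates are on L03 (ref_v2), and not on the S288C version R64-1-1 that the authors derived its annotation from. Intervals are exact 95% intervals of a count (Clopper-Pearson for shares, Poisson for rates) or order-statistic intervals of a median. They cover counting error only, since neighbouring genes are not independent, and no test was made.

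The distances of the far genes to the nearest origin had a median of 49.8 kb, with quartiles of 43.7 and 60.0 kb and a maximum of 106.6 kb. The median over all genes was 13.5 kb, with quartiles of 6.29 and 24.1 kb. The limit cut a continuous distribution, in which 75 genes lay between 39 and 41 kb. The members just inside it were YBR062C at 40.03 kb, PAM1 at 40.04 kb and YBR219C at 40.10 kb. Just outside it were FAP7, an NTPase needed to make the small ribosomal subunit, at 39.99 kb, MSR1, the mitochondrial arginyl-tRNA synthetase, at 39.96 kb, and the subtelomeric helicase gene YRF1-7 at 39.95 kb. The plot of gene distances shows no gap at the limit.

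**Figure D1:**
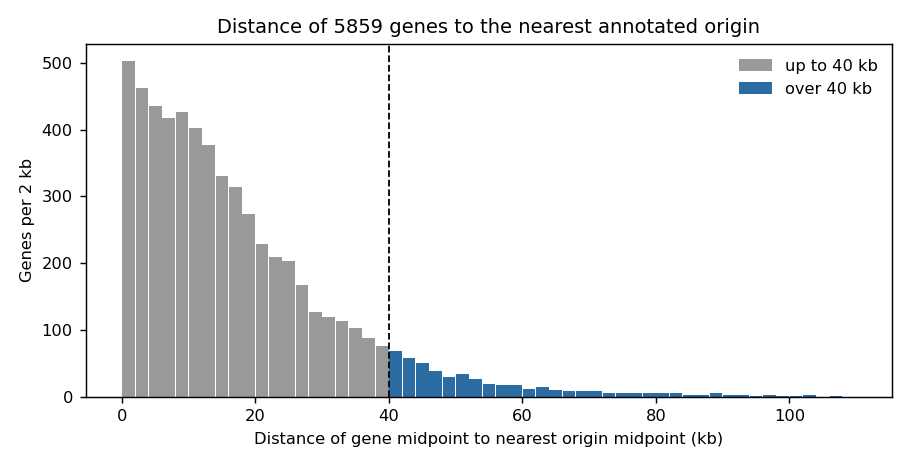
Number of genes per 2 kb of distance between the gene midpoint and the nearest origin midpoint (kb), for 5859 genes. The 480 genes to the right of the dashed line at 40 kb (blue) form the thin tail of a distribution with a median of 13.5 kb.

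The sequence over 40 kb from every origin formed 41 stretches that together covered 1009 kb, or 8.37% of the 12056 kb annotated. Of these, 31 lay between 2 origins more than 80 kb apart and covered 655.8 kb. The remaining 10 ran from 40 kb beyond an outermost origin to a chromosome end and covered 353.4 kb. Stretches between origins held 340 far genes and those at ends held 140. A stretch between origins had a median length of 14.5 kb (range 1.02 to 93.0 kb), and one at an end 37.9 kb (3.09 to 69.7 kb). Gene midpoints fell in 39 of the 41, none held a centromere, and 18 with 10 or more genes held 383 of the 480. The 6 stretches with most genes held 186 of them, or 38.75%. The plot of stretch lengths shows how few neighbourhoods hold most far genes.

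**Figure D2:**
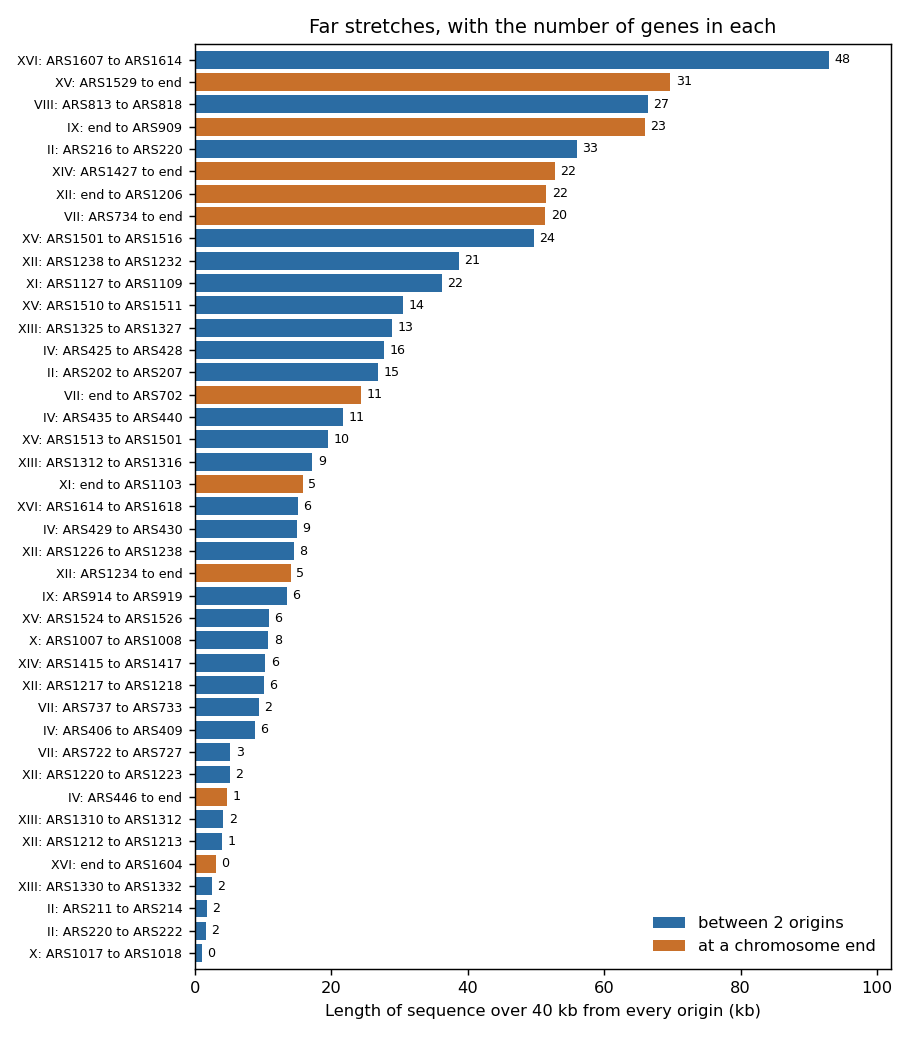
Length (kb) of each of the 41 stretches of sequence over 40 kb from every origin, named by chromosome and flanking origins, with the number of far genes beside each bar. Blue bars lie between 2 origins and orange bars run to a chromosome end. The ARS1607 to ARS1614 stretch on XVI is 93.0 kb long and holds 48 genes, and 19 of the 31 blue bars hold under 10.

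Of the 16 chromosomes, 12 carried far genes and I, III, V and VI carried none. Chromosome XV had 85, or 15.9% of its genes, in 5 stretches. Chromosome IX had 29 (14.0%), II had 52 (12.8%), XII had 65 (12.8%) and XVI had 54 (11.6%). Between 5.65% and 9.61% of the genes on IV, VII, VIII, XI, XIII and XIV were far, and chromosome X had 8 (2.24%). The chromosomes fell into 2 clusters by origin spacing. On I, III, V, VI and X there was 1 origin per 16.4 to 30.3 kb, and 8 of their 1011 genes were far. On the other 11 there was 1 per 47.9 to 64.1 kb, and they held the remaining 472. As origin spacing sets how often a gap can exceed 80 kb, this follows in part from the rule. Within the 11 sparser chromosomes, the share ran from 5.65% on XIII to 15.9% on XV.

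**Figure D3:**
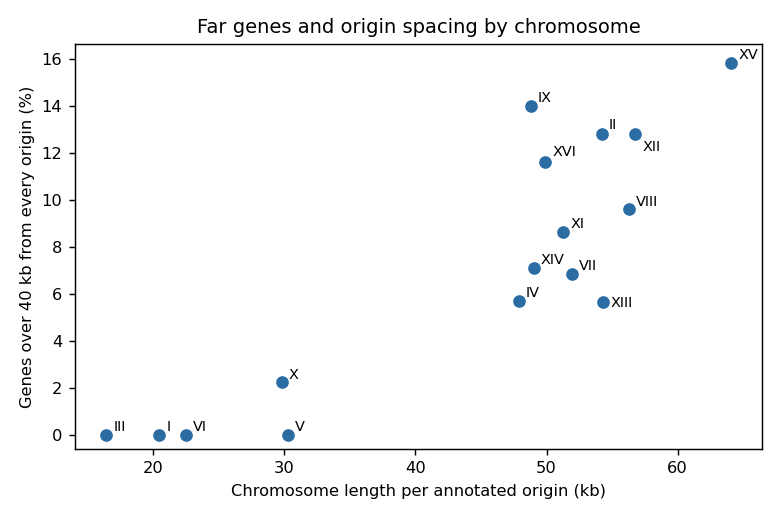
Share of genes over 40 kb from every origin (%) against chromosome length per annotated origin (kb), 1 point per chromosome. The 5 chromosomes with 1 origin per 16.4 to 30.3 kb have 0 to 2.24% far genes, and the 11 others have 5.65 to 15.9%.

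The stretch with most far genes was on chromosome XVI from 156627 to 249585, between ARS1607 and ARS1614, which are 173 kb apart. Its 48 genes run from IPL1, the Aurora kinase that corrects kinetochore attachments, to CDC60, the cytosolic leucyl-tRNA synthetase. The gene farthest from any origin outside the chromosome ends lay here: CTI6, a PHD-finger protein that helps recruit the SAGA coactivator to repressed promoters, at 85.4 kb from ARS1614. The 10 far genes farthest from an origin among those between origins all came from this stretch, between 76.1 and 85.4 kb. Next to CTI6 were RTT10, which restricts Ty1 transposition, at 84.4 kb, and TCO89, a subunit of the TORC1 growth regulator, at 83.1 kb. MF(ALPHA)1, the main gene for the mating pheromone alpha-factor, lay at 77.3 kb, and CBC2, the small subunit of the nuclear cap-binding complex, at 77.1 kb. The CUP9 gene, a repressor of peptide transport, lay at 76.1 kb. The stretch has 24 genes on each strand. Away from the nearest origin, meaning in the direction in which a fork from it would pass, 26 of the 48 were transcribed.

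Chromosome II held the next most between origins. From 526798 to 582771, between ARS216 and ARS220, lay 33 genes from YBR141C to UMP1, a chaperone of proteasome assembly. The farthest was ICS2, of unknown function, at 67.1 kb from ARS216. Close to it were RPB5, a subunit shared by the 3 nuclear RNA polymerases, at 61.9 kb, and CDC28, the cyclin-dependent kinase that drives the cell cycle, at 62.3 kb from ARS220. The density was 59.0 genes per 100 kb, and no tRNA gene or long terminal repeat was annotated there.

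On chromosome VIII, a single stretch from 285852 to 352276 between ARS813 and ARS818 held all 27 far genes. It starts with 3 neighbouring hexose transporter genes, HXT4 at 42.1 kb, HXT1 at 45.9 kb and HXT5 at 49.7 kb, and ends at MSH1, which repairs mitochondrial DNA. TRA1, a scaffold of the SAGA and NuA4 histone acetyltransferases and, at 11235 bp, the longest far gene, lay at 62.5 kb. The farthest was KIC1, a kinase of the PAK family needed for cell integrity, at 72.4 kb. Of the 27 genes, 6 were transcribed away from the nearest origin and 21 towards it. This was the lowest share among the 12 chromosomes, 22.2% against 51.6% of the other genes of VIII, and it was singled out after the values were seen.

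Chromosome XV had 4 stretches between origins. The one from 474925 to 524567, between ARS1501 and ARS1516, held 24 genes from TGL5, a triacylglycerol lipase, to LEU9, an isozyme of leucine synthesis, with its farthest gene ARF3, a small GTPase of cell polarity, at 63.5 kb. A second, from 205147 to 235695, held 14 genes from CRT10 to GAL11, a subunit of the Mediator complex. Its farthest gene was YOL057W, a putative metalloprotease, at 54.7 kb. The third held 10 genes from HST3, a deacetylase of the Sir2 family, to AKR2, a putative palmitoyltransferase, farthest DFG16 at 49.1 kb. It lay between ARS1513 and ARS1501, so ARS1501 flanks far stretches on both sides. The fourth, between ARS1524 and ARS1526, which are 90.9 kb apart, held 6 genes around VPH1, a subunit of the vacuolar proton pump.

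The other stretches between origins with 10 or more genes were 21.7 to 38.6 kb long. Chromosome XI had 22 genes from YKL100C to SMY1 between ARS1127 and ARS1109, farthest CUE2, a ubiquitin-binding protein, at 57.3 kb. Chromosome XII had 21 from SEI1, the seipin of lipid droplets, to RPN13, a proteasome subunit. The farthest of these was CTR3, a copper transporter, at 58.9 kb. Chromosome IV had 16 from MSS116 to YDR210W-A, farthest MSC2, a zinc transporter, at 53.5 kb, and 11 from DOT1, the histone H3 lysine methylase, to PPN1, a vacuolar polyphosphatase. Among these 11, ECM11, which acts in meiosis, was farthest at 50.2 kb. On chromosome II, 15 genes from KIP1, a kinesin of the mitotic spindle, to EDE1, an endocytic scaffold, surrounded YBL055C at 52.9 kb. Chromosome XIII had 13 from DML1 to UBP8, farthest GUA1, the GMP synthase, at 53.1 kb. The stretches between origins with under 10 genes lay near the limit, with the farthest gene of each at 40.4 to 47.1 kb. On IV these were CTA1, the peroxisomal catalase, at 47.1 kb and ENT1, an endocytic epsin, at 44.1 kb. PDS5, a regulator of sister chromatid cohesion, lay at 47.0 kb on XIII, where FAR8 and LRC6 were farthest in 2 more. On XII they were YLR356W at 46.5 kb, HRD3, a protein of the endoplasmic reticulum degradation machinery, the zinc-cluster protein YLR278C, and IOC2, a chromatin remodelling subunit. YPL113C, a glyoxylate reductase, lay at 47.0 kb on XVI, and ULP2, a protease that removes SUMO, at 46.5 kb on IX. LCB3, a sphingoid base phosphatase, lay at 45.3 kb on X, and SRV2, which binds adenylyl cyclase, at 44.9 kb on XIV. On VII they were CRM1, the main nuclear export receptor, at 43.7 kb and SPT4, a transcription elongation factor, at 42.3 kb. On II they were YBR220C and YBR063C, of unknown function.

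The midpoint of the gap between the flanking origins, where forks would meet if both origins fired together and the forks moved at 1 speed, fell inside a gene in 25 of the 31 gaps.

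The farthest genes of all were at chromosome ends. The 10 genes with the longest distances came from the right end of XV and the left end of IX, from 92.1 to 106.6 kb. On XV, from 1019621 to the end at 1089332, 31 genes ran from PIP2, a transcription activator of peroxisome proliferation, to YRF1-8, a helicase encoded in a subtelomeric Y′ element, the farthest gene in the annotation at 106.6 kb. Inward of it lay YOR394C-A at 102.7 kb, the seripauperin gene PAU21 at 101.4 kb and ERR1, an enolase-related gene, at 99.4 kb. HSP33, a member of the DJ-1/PfpI superfamily, lay at 97.3 kb. On IX, from 1 to 65909, 23 genes ran from YIL177C at 102.6 kb, a gene similar to Y′ helicases, to MLP2, a protein of the nuclear pore basket, at 40.4 kb. This stretch also holds the seripauperin gene PAU14 at 96.9 kb, VTH1 at 92.1 kb and SUC2, the invertase that splits sucrose, at 67.8 kb.

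The left end of XII held 22 genes from YLL067C at 89.1 kb to FPS1, the glycerol channel of the plasma membrane, at 40.6 kb. The right end of XIV held 22 from BIO5, a transporter of a biotin precursor, to PAU6 at 90.5 kb. The right end of VII held 20 from TAF1, a subunit of the general transcription factor TFIID, at 41.9 kb, to YRF1-3 at 88.2 kb. Its left end held 11 from COS12, the farthest at 61.0 kb, to FZF1, a regulator of sulfite metabolism. The left end of XI had 5, farthest PAU16 at 53.8 kb. Chromosome XII had 5 at its right end, farthest YRF1-5 at 51.1 kb, and IV had 1, YRF1-1 at 41.8 kb. The left end of XVI had a stretch of 3.09 kb with no far gene, as the midpoint of YRF1-7 lay at 39.95 kb. Of the 32 ends, these 10 had their outermost origin over 40 kb inward, and the median over all ends was 24.8 kb.

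All 10 of those ends, and 21 of the other 22, carry telomere-associated X or Y′ elements whose notes name an ARS consensus sequence, 46 elements in all, which are typed as repeats and so did not count as origins. When they were counted as origins, an alternative chosen after seeing the file, 368 genes in 35 stretches were far. All 340 genes between origins remained, and 28 of the 140 at ends. The 28 were the inward 9 of IX, 2 of VII, 6 of XIV and 11 of XV. Among the 28 were MCM10, BIO5, BIO4, BIO3 and RAD17. None of the 10 farthest genes stayed a member, so their rank depends on the type given to these repeats.

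Because so many far genes sit at ends, position on the chromosome was compared first. The median distance to the nearest chromosome end was 205 kb (interval 175 to 219 kb) for far genes and 207 kb for other genes, yet the far genes form 2 groups around it. Those between origins had a median of 239 kb and never came within 65.9 kb of an end, while those at ends had a median of 29.3 kb. Within 25 kb of an end lay 63 far genes (13.1%, interval 10.2 to 16.5%) and 239 other genes (4.44%). Read the other way, 63 of the 302 genes there were far (20.9%, interval 16.4 to 25.9%). None of the 63 stayed far when X and Y′ elements were counted as origins.

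Far genes were split nearly evenly by direction of transcription. Away from the nearest origin, so with the fork coming from it, 237 of 480 were transcribed, or 49.4% (interval 44.8 to 53.9%). The share was 49.6% among other genes, 48.4% within 10 kb of an origin, 49.3% at 10 to 20 kb and 51.9% at 20 to 40 kb. It was 47.9% between origins and 52.9% at ends, where 74 of 140 genes point to the telomere. By chromosome, far genes had the higher share on 6 and the lower on 6 of 12. The plus strand held 244 of the 480.

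Gene density was also close to that elsewhere when all far stretches were pooled. There were 47.6 genes per 100 kb (interval 43.4 to 52.0) against 48.7 in other sequence, higher on 5 chromosomes and lower on 7. Density was 51.8 (46.5 to 57.7) between origins and 39.6 (33.3 to 46.8) at ends, with intervals that overlap slightly. Genes covered 71.9% of far and 72.5% of other sequence, with 76.9% between origins and 62.6% at ends. Within 25 kb of an end, density was 33.7 in far and 39.0 in other sequence and coverage 56.1% and 48.2%, so other ends were gene-poor too. With all of that sequence left out, density was 50.7 in far and 49.3 in other sequence. The gaps between neighbouring genes had a median of 369 bp (interval 342 to 416) among far genes and 366 bp among others. They were 334 bp (307 to 366) between origins and 624 bp (450 to 819) at ends. The longest gap between far genes was 4831 bp, between YIL169C and YIL166C on IX, and it holds the pseudogenes YIL168W and SDL1.

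Far genes had a median length of 1251 bp (interval 1179 to 1323), with 1227 bp (1194 to 1263) among other genes. The median was 1251 bp (1170 to 1323) between origins and 1246.5 bp (1125 to 1548) at ends, so the lower density at ends did not come with shorter genes by this measure. Far genes over 4 kb numbered 22, or 4.58% against 4.02% of other genes, and 12 of them lay at ends (8.57% of 140, interval 4.51 to 14.5%). After TRA1, the longest were the subtelomeric helicase genes YRF1-3 at 5728 bp and YIL177C at 5666 bp. The shortest were YJL136W-A at 84 bp, YNR075C-A at 93 bp and YLR466C-B at 117 bp. YLR466C-B and YLL066W-B, both at ends of XII, are the 2 genes in the whole annotation called dubious. More than 1 coding part was annotated in 25 far genes, or 5.21% against 5.39%.

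Strand runs, meaning uninterrupted neighbours on the same strand, were short. Of 475 far genes with a next gene on the chromosome, 219 shared its strand, or 46.1% (interval 41.6 to 50.7%) against 48.5%. Among neighbouring pairs of far genes, 45.6% were tandem, 26.5% convergent and 27.9% divergent. The shares in other genes were 48.4%, 25.8% and 25.8%. Far genes formed 242 runs with a mean of 1.70 genes, and 11 runs (4.55%) had 5 or more. The mean in other genes was 1.92 and 5.55% had 5 or more, with a longest run of 17. Far runs are cut where a stretch ends, which shortens them. The longest far run was 7 genes on the plus strand at the right end of XV, from 1043237 to 1058033: YOR376W-A, ATF1, YOR378W, RDR1, FRE3, YOR381W-A and FIT2. ATF1 makes acetate esters, RDR1 represses drug transporter genes, and FRE3 and FIT2 act in the uptake of siderophore-bound iron.

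Far sequence held fewer tRNA genes and long terminal repeats (LTRs) per length than other sequence. LTRs are the terminal copies of Ty retrotransposons, most of which integrate near genes transcribed by RNA polymerase III, so in yeast most LTRs lie close to tRNA genes. Far stretches held 10 of 275 tRNA genes (3.64%), which is 0.991 per 100 kb (interval 0.475 to 1.82) against 2.40 (2.12 to 2.71) elsewhere. They held 15 of 381 LTRs (3.94%), 1.49 per 100 kb (0.832 to 2.45) against 3.31 (2.98 to 3.67). tRNA density was lower in far sequence on 11 of the 12 chromosomes, the exception being XVI at 1.80 against 1.79. LTR density was lower on 11 of 12, with IV the exception at 3.85 against 2.27. Far sequence held 0 tRNA genes on II, VIII, X, XI and XIV, and 0 LTRs on these and XIII. A 0 counts as lower however short the sequence, which was 11.8 kb on X. No tRNA gene was annotated in 32 of the 41 stretches, nor any LTR in 33, but many stretches are short, with a median of 14.5 kb between origins.

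Both densities also differed with distance within the first 40 kb. tRNA density was 3.17 per 100 kb (2.68 to 3.72) within 10 kb of an origin, 2.03 (1.58 to 2.57) at 10 to 20 kb and 1.58 (1.15 to 2.10) at 20 to 40 kb. LTR density was 4.16, 2.89 and 2.43 in the same classes. The intervals at 10 to 20 kb and at 20 to 40 kb overlap. Far sequence between origins had 1.52 tRNA genes (0.731 to 2.80) and 2.13 LTRs (1.17 to 3.58) per 100 kb, so its values overlap those at 20 to 40 kb. The ends held 0 tRNA genes in 353.4 kb, with an interval up to 1.04 per 100 kb, and 1 LTR. Other sequence within 25 kb of an end had 0.326 tRNA genes and 3.75 LTRs per 100 kb, with 0 and 0.534 in far sequence there. Farther than 25 kb from an end, tRNA density was 1.22 in far and 2.52 in other sequence, and LTR density 1.70 and 3.29. Whether the pooled difference reflects distance from origins or chromosome position was not tested.

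**Figure D4:**
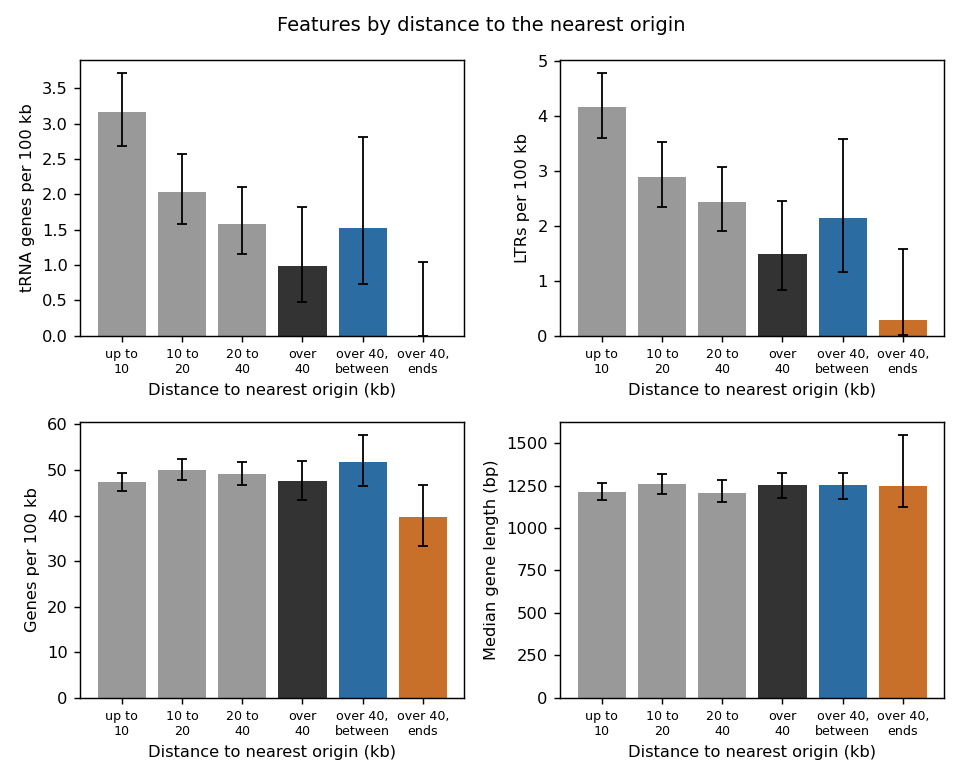
tRNA genes, LTRs and genes per 100 kb and median gene length (bp) by distance to the nearest origin (kb), with the far class also split by kind of stretch. Bars are values along the 1 annotated sequence and error bars exact 95% intervals of the count or order-statistic intervals of the median. tRNA density goes from 3.17 within 10 kb to 0.991 beyond 40 kb, while median gene length stays between 1204.5 and 1257 bp.

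The 10 far tRNA genes all lay between origins and were spread over 9 stretches. The farthest was TE(UUC)P, a glutamate tRNA gene on XVI from 210183 to 210254, at 79.4 kb. TG(GCC)O1, for glycine, lay at 51.0 kb and TN(GUU)O1, for asparagine, at 49.3 kb, in the same stretch of XV. TN(GUU)O2, the second asparagine gene, lay at 50.6 kb in another stretch of XV. The other 6, from 40.9 to 49.8 kb, included IMT2, an initiator methionine tRNA gene, at 45.8 kb. An LTR lay within 1 kb of 7 of the 10 (70%), as of 170 of 265 other tRNA genes (64.2%). Conversely, 10 of 15 far LTRs (66.7%) lay within 1 kb of a tRNA gene, against 240 of 366 (65.6%), with median distances of 0.549 and 0.554 kb. The few far LTRs therefore lay about as close to tRNA genes as the others did. They were 12 delta, 1 sigma, 1 tau and 1 omega elements, and the omega element was the one at an end, the left end of VII.

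Ty genes numbered 3 among the far genes (0.625%, interval 0.129 to 1.82%) and 87 among other genes (1.62%). YDR210W-A lay on IV, and YLR410W-A and YLR410W-B on XII start at the same base, 941394, so they share sequence. They sit between delta LTRs directly before CTR3, whose annotation says that a Ty2 insertion disrupts it in many laboratory strains. Far stretches also held 4 of 83 non-coding RNA features, 0.396 per 100 kb (interval 0.108 to 1.01) against 0.715 elsewhere. They held 6 of 21 pseudogenes, 0.595 per 100 kb (0.218 to 1.29) against 0.136. All 6 were on the left end of IX, HXT12 and SDL1 among them.

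Functions were read through 22 lists of genes, of which 63 far genes were in any and 417 in none. Against the background of 8.19%, the interval of 1 list lay wholly above, that of no list lay wholly below, and 3 lists had no far member. The list above was the subtelomeric families (YRF1, PAU, COS and MAL genes), with 19 of 84 far (22.6%, interval 14.2 to 33.0%), all at ends. That share is close to the 20.9% of all genes within 25 kb of an end. There, 19 of 65 family members (29.2%) and 44 of 237 other genes (18.6%) were far. With X and Y′ elements counted as origins, none of the 19 stayed far. Y′ helicase genes are near-identical copies, and 5 of 8 YRF1 genes were far. The far MAL genes were MAL11, MAL12 and MAL13, a maltose permease, maltase and activator at the right end of VII, at 71.4 to 77.9 kb. The family median distance was 11.6 kb, so other subtelomeric members lie close to an annotated origin.

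**Figure D5:**
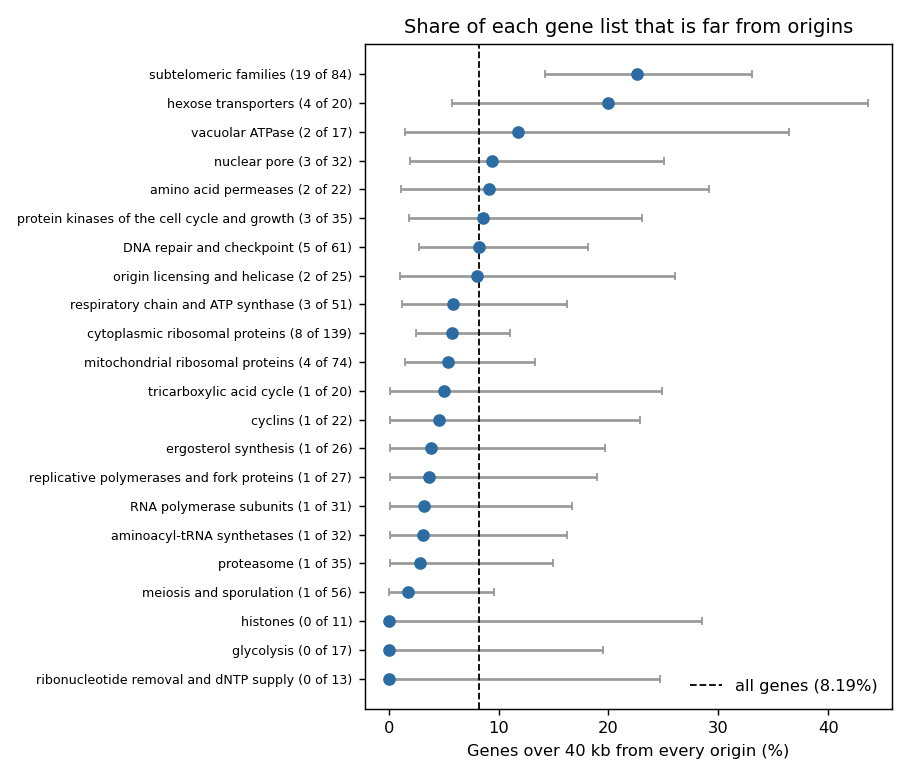
Share of each gene list over 40 kb from every origin (%), with exact 95% Clopper-Pearson intervals as bars and the 8.19% of all genes as the dashed line. The interval of the subtelomeric families, 14.2 to 33.0%, lies above the line, and those of the other 21 lists include it.

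The lists of replication and repair genes had far shares whose intervals all include the 8.19% of all genes. Among 25 licensing and helicase genes, 2 were far (8.00%): ORC6, a subunit of the origin recognition complex, at 47.3 kb and MCM10, which activates the helicase, at 44.1 kb. Of 27 for replicative polymerases and fork proteins, CDC9, the DNA ligase that joins Okazaki fragments, was far (3.70%) at 42.4 kb. None of 13 genes for ribonucleotide removal and dNTP supply was far, with an interval up to 24.7%. DNA repair and checkpoint genes had 5 of 61 far (8.20%). DDC1, a subunit of the 9-1-1 checkpoint clamp, lay at 63.6 kb. REV3, the catalytic subunit of the translesion DNA polymerase zeta, lay at 54.7 kb, and MLH3, a mismatch repair protein, at 49.2 kb. All 3 are in the ARS1607 to ARS1614 stretch. RAD17, another clamp subunit, lay at 45.9 kb and MSH1 at 41.3 kb.

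For protein synthesis, 8 of 139 cytoplasmic ribosomal protein genes were far (5.76%, interval 2.52 to 11.0%), with RPS7A at 60.2 kb, RPL7B at 57.3 kb, RPS17B at 49.2 kb and RPS12 at 46.8 kb the farthest. RPS18A, RPS21B, RPL8B and RPL31B lay at 42.7 to 44.0 kb. Most yeast ribosomal proteins are encoded by 2 paralogous genes. For the 7 far genes with such a pair, none of the partners was far, at 5.61 to 39.5 kb from an origin. As 8.19% of all genes were far, few far partners would be met among 7 genes in any case. RPS18B at 39.5 kb and RPS17A at 36.9 kb lay near the limit. Mitochondrial ribosomal proteins had 4 of 74 far, MRPL40 at 66.0 kb, MRPS9, NAM9 and MRPL9. The aminoacyl-tRNA synthetases had 1 of 32, CDC60, the RNA polymerase subunits 1 of 31, RPB5, and the proteasome 1 of 35, RPN13.

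For metabolism, no glycolytic gene of 17 was far, with a median distance of 4.25 kb. The interval of that share reaches 19.5% and so includes the 8.19% of all genes. The tricarboxylic acid cycle had 1 of 20, MDH1, the mitochondrial malate dehydrogenase, at 50.2 kb. Respiratory chain genes had 3 of 51, all factors of cytochrome oxidase assembly: COX10, COX23 and COX18. The vacuolar ATPase had 2 of 17, VPH1 and VMA5, and ergosterol synthesis 1 of 26, ERG8. Hexose transporters had 4 of 20 (20.0%, interval 5.73 to 43.7%), the 3 neighbours on VIII and HXT17 at 81.9 kb on the right end of XIV. As 3 of the 4 are adjacent copies of 1 family, they are not separate cases. The amino acid permeases had 2 of 22, MMP1, which takes up S-methylmethionine, and BIO5.

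In the cell cycle and nuclear lists, 3 of 35 kinase genes were far, CDC28 at 62.3 kb, TPK2, a catalytic subunit of protein kinase A, at 50.2 kb and IPL1 at 40.4 kb. The cyclins had 1 of 22, CLB4 at 40.3 kb. The nuclear pore had 3 of 32, NUP1 at 57.0 kb, SEC13 and MLP2. No histone gene of 11 was far, with a median distance of 2.21 kb and an interval up to 28.5%, which includes the 8.19% of all genes. Of 56 genes for meiosis and sporulation, 1 was far (1.79%, interval 0.0452 to 9.55%), namely MSC2, which the list took by its name and whose product is a zinc transporter of the cation diffusion facilitator family. Lists by name miss genes such as ECM11: the product texts of 12 far genes (2.50%) name meiosis or sporulation, against 3.90% of other genes.

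Some small families were picked after their positions were seen, so their shares cannot be weighed against the 8.19% of all genes. All 4 annotated BIO genes of biotin synthesis and uptake were far, BIO3, BIO4 and BIO5 as neighbours on XIV at 40.9 to 43.4 kb and BIO2 on VII at 64.8 kb. Of the 8 FRE genes for ferric and cupric reductases, 5 were far: FRE5 at 81.0 kb, FRE3 at 75.03 kb, FRE6 at 53.1 kb, FRE4 at 49.4 kb and FRE2 at 45.6 kb, on 4 chromosome ends. FRE1, FRE7 and FRE8 lay at 33.5, 5.89 and 9.08 kb. Of the 3 FIT genes, for cell wall mannoproteins of iron uptake, FIT2 and FIT3 lay between FRE3 and FRE5 at 78.2 and 79.2 kb, and FIT1 lay at 17.1 kb on IV. With X and Y′ elements counted as origins, BIO3, BIO4, BIO5 and FRE4 stayed far. BIO2, FRE2, FRE3, FRE5, FRE6, FIT2 and FIT3 did not. Between origins, the neighbouring cell wall genes CWP1 and CWP2 were both far on XI, at 47.9 and 45.8 kb. Of 6 OST genes for oligosaccharyltransferase, OST2 and OST3 were far, at 49.9 and 45.7 kb in the same stretch of XV.

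Annotation of the genes also differed between the kinds of stretch. No standard name was given to 103 far genes (21.5%, interval 17.9 to 25.4%) and 19.1% of other genes. The share was 16.8% between origins (13.0 to 21.2%) and 32.9% at ends (25.2 to 41.3%). Within 25 kb of an end it was 38.1% of far and 39.7% of other genes, so other ends had it too. Experimental evidence was cited for the coding sequence of 83.2% between origins, 67.1% at ends and 80.9% of other genes. These are the genes with a standard name, so this repeats the share above and is not a separate difference. By words in the product text, chosen after the file was seen, telomeres were named for 10.0% of the genes at ends and 2.75% of other genes, and a transporter or permease for 9.29% and 4.29%. Part of the telomere share restates position, as the texts of COS12 and YRF1-3, for example, mention a subtelomeric location. Mitochondria were named for 5.71% at ends, 14.4% between origins and 13.0% of other genes. Kinases were named for 0 of 140 at ends, with an interval up to 2.60%, and 22 of 340 between origins (6.47%, against 5.13% of other genes). Over all far genes the shares were 4.79% for telomeres, 4.38% for transporters or permeases, 11.9% for mitochondria and 4.58% for kinases. Other words were also counted, among them transcription, at 10.0% at ends and 9.70% of other genes. Whether these shares hold for chromosome ends in general was not tested.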

How the data were processed

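All values come from 1 deposited file, the L03 annotation, which the authors derived from the Saccharomyces Genome Database S288C version R64-1-1, per the file header. It gives feature types, starts, ends and strands and holds no measured value. For the libraries, whose end counts were not analysed here, cutadapt 1.2.1 and Bowtie 0.12.8 are named in the submitters' processing notes. Groups came from the strain label. Experimental evidence is cited for 4 of the 274 origins. Names are those of the file, and 478 of the 480 far genes matched the R64 gene table by locus tag.

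Distances ran between midpoints. Sequence counted as far if over 40 kb from every origin midpoint, and other features by their midpoints. Shares other than coverage have exact Clopper-Pearson 95% intervals, rates exact Poisson and medians order-statistic intervals. The code for distances to origins, far stretches and Clopper-Pearson intervals was tested on simulated chromosomes with planted origins and random positions. The other measures were not tested in this way. No comparison between samples and no significance test was made. The members and gene lists were chosen with earlier results of these data known. Distance classes, product words, small families, the repeat elements counted as origins and the origin numbers were chosen after the file was seen.

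The genes named were fixed by a rule: the 10 farthest, the farthest of each stretch and its first and last where it has 10 or more genes, 3 on either side of the limit, the 3 longest and 3 shortest, the longest same-strand run, the far members of each list (all, or the 4 farthest of more than 10) and the 3 farthest tRNA genes. Other genes were named after their values were seen. Alternatives changed the limit to 30 or 50 kb, the gene position used, the origins counted, the genes counted, the chromosome ends and each chromosome. Software was Python 3.11.15, pandas 2.3.3, numpy 2.4.6, scipy 1.17.1 and matplotlib 3.10.9.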

Additional observations from a re-analysis of the deposited data

How the results depend on the processing

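Across 64 values recomputed under other settings, 51 stayed within the interval of the value reported (or, for the number of genes, within 1.5 times it) and 13 did not. For coverage by genes the interval was not an exact one. It was the value plus or minus 1 standard deviation over the chromosomes with far stretches, 64.8 to 79.0%, which is wide. With a limit of 30 kb, 979 genes were far, and 235 with 50 kb. The median distance of far genes to a chromosome end was 227 kb at 30 kb, 167 kb at 50 kb, 239 kb for stretches between origins, 221 kb for genes with experimental evidence and 234 kb with X and Y′ elements counted as origins. The share without a standard name was 26.4% at 50 kb, 16.8% between origins and 16.8% with those elements as origins. It was 0% among genes with evidence, far and other alike, which was fixed in advance because only named genes had evidence. Among genes with evidence, density was 37.4 per 100 kb (39.4 in other sequence) and coverage 59.2% (61.6%), since fewer genes were counted. Both tRNA and LTR densities stayed below those of other sequence under every setting run, and a count of LTRs under 1 kb apart as 1 gave 0.991 against 2.11. The order against other genes or sequence turned in 21 of the 64, each for a measure whose other value lay inside the interval of the far value.

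With each chromosome left out in turn (leave-one-out), there were 395 to 480 far genes, 48.0 to 51.0% were transcribed away and density was 46.4 to 48.5 genes per 100 kb. Coverage was 71.3 to 73.0%, median length 1234.5 to 1260 bp, the same-strand share 45.3 to 47.0% and distance to an end 184 to 216 kb. Unnamed genes were 19.0 to 22.5%, tRNA genes 0.844 to 1.08 and LTRs 1.29 to 1.63 per 100 kb. The order against other genes turned without 4 of the chromosomes for the share transcribed away, 2 for coverage and 5 for distance to an end. No paired analysis was possible because no result compares samples. With 10 tRNA genes and 15 LTRs, counts limit the precision of both.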

Other observations

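Origin names carry a number that mostly increases along a chromosome. An origin with 2 names was read by the systematic one. Of the 31 neighbouring origins more than 80 kb apart, 6 had numbers that differ by 1 (19.4%), against 143 of 227 closer neighbours (63.0%), with a median step of 3 against 1. ARS1607 and ARS1614, which flank the stretch with most genes, are 7 apart. Both shares pool chromosomes whose numbering differs. On I and X, which are among the chromosomes with close origin spacing, neighbouring origins always differed by 1, while steps on II reached 28. The shares were not split by chromosome, so they do not separate long gaps from such differences in numbering. Any origin under a skipped number was not analysed here, and whether one lies in these gaps was not tested.

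The R64 gene table has 6002 protein-coding genes, of which 153 have no entry under the same locus tag in the L03 annotation used here. By their neighbours in the table, 12 of these fall between far genes and 140 between other genes. That split is near the 8.19% of all genes that were far. The counts together do not reach 153, as the rest fell in neither class.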
